A study of Mus musculus and Homo sapiens with 10 samples.

Results

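The copies described here are the 268 long elements of the mouse L1 subfamily L1Md_F. They were chosen by subfamily name alone, as the loci listed exactly as L1Md_F among 14949 mouse L1 copies of at least 5 kb, without the 3677 copies of L1Md_F2 and the 721 of L1Md_F3. The rule uses no measured value, although the subfamily was picked for description with earlier results of these data known. The copies lay on 19 autosomes and on chromosome X, which held 28 of them, and none was listed on chromosome Y. Their listed lengths ran from 5000 to 6146 bp with a median of 5253 bp. All coordinates below are in the mouse build mm9, the copies are numbered from 1 to 268 by falling mean level over the RNA libraries, and no gene annotation of mm9 was used.

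L1 elements are retrotransposons that copy themselves through an RNA, which is read both as a messenger for the element's own proteins and as the template for a new insertion. The F lineages of mouse L1 are older than the A, T and Gf lineages, whose youngest copies are still able to move, and most old copies carry decayed sequence. In embryonic stem (ES) cells many L1 and other retroelements are held down by KRAB zinc finger proteins, which recognise DNA sequence and recruit KAP1 (gene Trim28), a corepressor that in turn brings histone methyltransferases and heterochromatin proteins.

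The study asked how L1 is restrained in ES cells, and 4 mouse RNA-seq libraries and 2 mouse ChIP-seq peak lists bear on the L1Md_F copies. RNA came from the line ES3, of strain C57BL/6, collected 4 days after transduction with a lentivirus (LV) that carried either an empty short hairpin vector (sh-empty, 2 control libraries) or a hairpin against the zinc finger protein Gm6871 (sh-Gm6871, 2 knockdown libraries). Gm6871 binding was mapped with an anti-HA antibody in ES3 cells that overexpressed HA-tagged Gm6871 for 2 days after doxycycline, so it is the binding of an added protein. KAP1 binding was mapped in unmodified (WT) cells of the line J1, which is of strain 129S4/SvJae. The RNA and the KAP1 peaks therefore come from different strains, and a copy of the reference genome that J1 lacks could not carry a peak. No entry of the deposited gene table matched Gm6871, so its own knockdown was not checked. Each peak list came from 1 library and has no replicate.

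The 4 RNA libraries held 37198636 and 63023969 reads in controls 1 and 2, and 51415125 and 66050821 reads in knockdown libraries 1 and 2. Levels are RPKM, reads per kilobase of copy scaled to the library's read total. Of the L1 reads, L1Md_F took 0.368%, 0.375%, 0.361% and 0.403% in that order of libraries, while its copies made up 1.63% of the listed L1 length. That left 1643, 3950, 2642 and 4162 reads for all 268 copies together. The cells expressed most ES cell markers in every library, with summed RPKM of 6543 to 8136 over 16 genes. The largest part came from Dppa5a (4606, 3194, 4222 and 4719 RPKM), with Pou5f1 at 888 to 1175 RPKM and Nanog at 168 to 194 RPKM. Esrrb was listed at 0.0135 to 0.0499 RPKM and Tbx3 at 0.715 to 0.911 RPKM. The Esrrb value is that of a single entry and is not read as the level of the gene. Summed RPKM of 11 fibroblast markers was 352 to 428, with Col1a1 at 9.03 and 9.45 in the libraries numbered 1 and at 0.374 and 0.453 in those numbered 2. Tagln split in the same way, at 18.3 and 17.6 against 1.38 and 0.487 RPKM, as did Acta2. The largest part of the sum came from Fn1 (294, 236, 233 and 353 RPKM), which did not split by number. Neither did Vim (90.5, 113, 92.4 and 22.7 RPKM) or Thy1 (1.38, 1.92, 1.84 and 1.36 RPKM). The other listed fibroblast genes did split, some of them at values near 0. Summed RPKM of 10 primitive endoderm markers was 122 in knockdown library 2 and 220 to 256 in the others, most of it from Sparc (217, 238, 204 and 114 RPKM). Gata6, a defining factor of that cell type, did not follow the sum, at 0.589, 1.24, 0.597 and 1.21 RPKM. Gata4, another such factor, had 0.689 and 0.860 RPKM in the controls and 0.516 and 0.598 RPKM in the knockdown libraries. Of the 6 endoderm genes with a mean of at least 0.5 RPKM, 6 had a log2 difference (knockdown minus control) below 0. Their median was -0.51, against -0.0026 over all genes tested, and 0 passed limma's test over all genes. The part of these other cell types in the results below was not tested.

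KAP1 peaks lay on 27.2% of the L1Md_F copies, a share close to that in L1Md_F2. By an overlap of at least 1 bp, 73 of 268 copies had a KAP1 peak (27.2%, 95% exact binomial interval 22.0 to 33.0%). The share was 24.6% in L1Md_F2 (23.2 to 26.0%), inside the interval for L1Md_F, and 13.7% in L1Md_F3 (11.3 to 16.5%), below it. It was 10.4% in L1Md_T, 7.26% in L1Md_Gf and 6.86% in L1Md_A, the lineages that still have mobile copies, and 12.7% over all listed L1 copies. These intervals cover counting error only. The placing of reads that match several positions, on which peaks and levels of repeats depend, was not given in the sources used here.

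**Figure D1:**
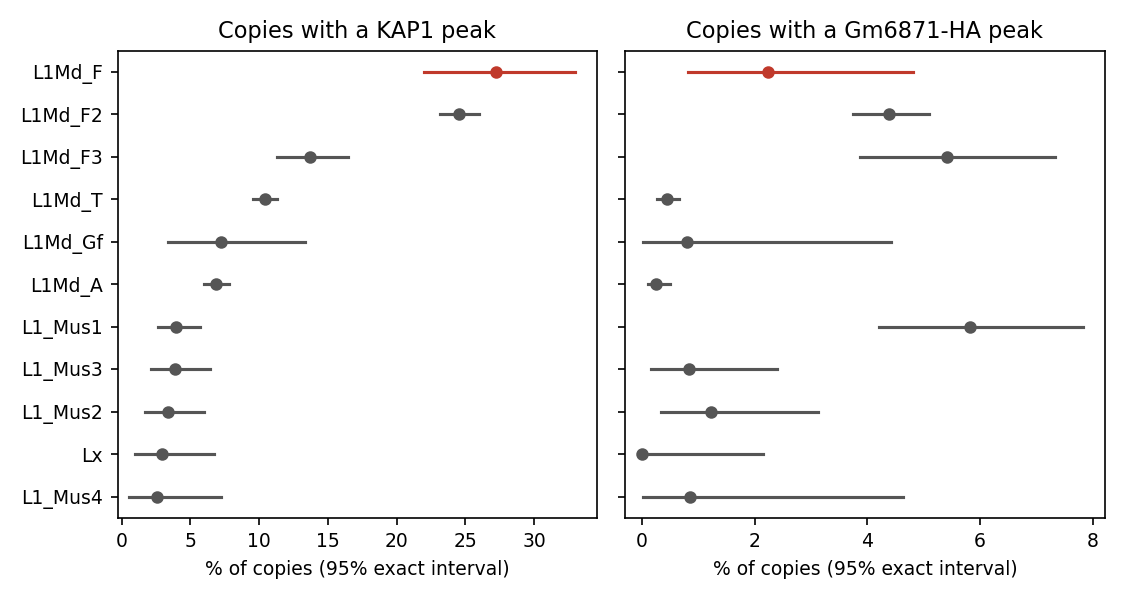
Percentage of copies with a KAP1 peak (left) or a Gm6871-HA peak (right) for each of the 11 mouse L1 subfamilies with at least 100 listed copies, with 95% exact binomial intervals as lines and L1Md_F in red. L1Md_F stands at 27.2% for KAP1, next to L1Md_F2 at 24.6%, and at 2.24% for Gm6871-HA.

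The KAP1 peaks sat at the ends of the copies. There were 75 pairs of a peak and a copy from 74 peaks, since 1 peak reached 2 neighbouring copies. The midpoint of the peak was at a median of 241 bp inside the nearer listed end (quartiles 106 and 373 bp), and 62 of 75 midpoints (82.7%) lay within 500 bp of that end. The peak ran across the end of the copy in 61 pairs (81.3%), and in 11 pairs its midpoint was already outside. The deposited list gives no strand for the copies, so the 5′ end, where the L1 promoter lies, cannot be told from the 3′ end. In L1Md_F2 the median distance was 252 bp and 79.2% of midpoints lay within 500 bp, so the placement was alike in both lineages. In L1Md_F3 the median was 331 bp with 76.2% within 500 bp.

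**Figure D2:**
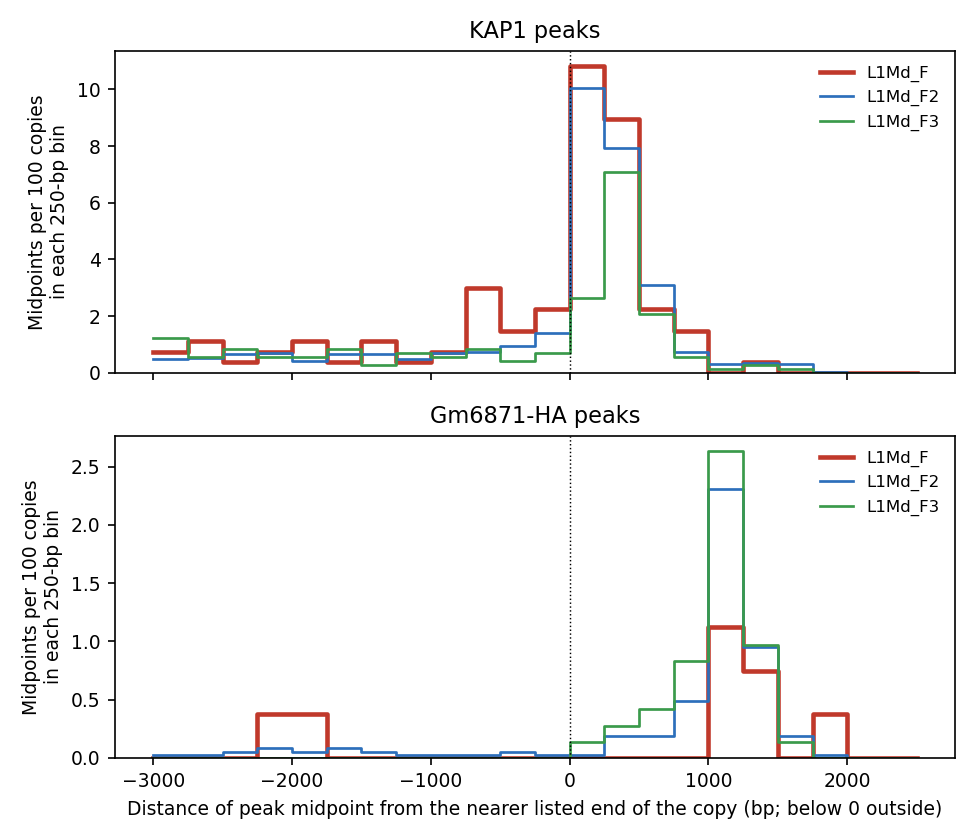
Number of peak midpoints per 100 copies in bins of 250 bp, by distance from the nearer listed end of the copy, for KAP1 (upper) and Gm6871-HA (lower) in L1Md_F, L1Md_F2 and L1Md_F3. Distances below 0 are outside the copy, and KAP1 midpoints on L1Md_F gather in the first 500 bp inside the end while the Gm6871-HA midpoints lie further in.

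The score of the KAP1 peaks varied widely among the copies. The authors' peak score ran from 50.29 to 1843.69 with a median of 141.2, where the lowest score in the whole list was 50. Of the 75 pairs, 22 had a score under 100 and 9 had one of at least 500. The highest score, 1843.69, belonged to copy 68 at chr3:18994686-19000000, where the peak from 18994369 to 18995827 covered the lower end. Copy 112 at chr15:24341368-24346742 followed with 1478.94, and copy 89 at chr8:59500001-59505118 with 1093.93. Copy 157 at chr5:87305852-87311442 scored 901.42, and copy 18 at chr2:7668777-7674169 scored 853.46. Of these 5 copies, 4 had a mean RPKM below 0.04, and copy 18 ranked 18th by level. Most copies were that low, since every copy from rank 62 to rank 268 had a mean below 0.04 RPKM.

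A pair of copies carried 2 KAP1 peaks each. On copy 18 the peak with the higher score covered the upper end, with its midpoint 77 bp outside the copy. The other peak, of score 52.07, had its midpoint 602 bp inside the lower end. On copy 216 at chr4:5807365-5812564 a peak of score 258.32 covered the lower end and 1 of score 182.7 covered the upper end. Only 10.5% of the former peak lay inside the copy.

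KAP1 peaks were rarer on chromosome X than on the autosomes together. Of the 28 copies on X, 1 had a KAP1 peak (3.57%, interval 0.0904 to 18.3%), against 72 of 240 autosomal copies (30.0%, 24.3 to 36.2%). A lower share on X was also found in other lineages: it was 7.76% on X and 27.1% on autosomes in L1Md_F2, 1.41% and 15.1% in L1Md_F3, and 4.59% and 13.7% over all L1 copies. L1Md_A had 5.51% on X and 7.05% on autosomes. Among the autosomes, the share in L1Md_F was highest on chromosome 6, with 8 of 15 copies, and lowest on chromosome 12, with 1 of 13, and chromosome 7, with 2 of 23. The shares on chromosomes 1 and 16 were also low, with 2 of 17 and 1 of 8 copies, so single autosomes came near the share on X. The number of X chromosomes in J1 was not examined, and its part in this difference was not tested.

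Gm6871 peaks lay on 6 of 268 L1Md_F copies (2.24%, interval 0.826 to 4.81%), close to the 1.93% over all listed L1 copies (1.71 to 2.16%). The share was highest in L1_Mus1 (5.82%), followed by L1Md_F3 (5.41%) and L1Md_F2 (4.38%), and the L1Md_F interval reached the L1Md_F2 value. L1Md_T stood at 0.442% and L1Md_A at 0.255%. All 6 bound copies were autosomal. The 6 peaks lay deeper in the copy than the KAP1 peaks: the midpoint was at a median of 1201 bp from the nearer end (1095 to 1892 bp), 5 of the 6 lay between 750 and 1500 bp, and none reached an end. In L1Md_F2 and L1Md_F3, 85.7% and 82.1% of the Gm6871 midpoints lay in the same interval.

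The highest Gm6871 score on an L1Md_F copy, 122.97, was on copy 98 at chr13:13994825-14000000, with the peak from 13996492 to 13996942. Copy 81 at chr1:80348490-80353743 scored 108.68 and copy 186 at chr16:3420205-3425681 scored 87.94. The scores of copy 105 at chr11:10067365-10073002 (54.59), copy 216 (51.53) and copy 124 at chr10:44670342-44675522 (51.04) were close to the lowest score in that list, 50.01. With a minimum score of 100 only copies 98 and 81 would remain.

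Both proteins had a peak on 3 of the 6 copies, namely copies 98, 105 and 216. On none of them did the 2 kinds of peak overlap. The midpoints were 1552 bp apart on copy 98, 1037 bp on copy 105 and, for the nearer KAP1 peak, 946 bp on copy 216. On all 3 copies the Gm6871 peak lay inward of a KAP1 peak at the same end. In all, 76 copies had a peak of either protein and 192 had none.

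RNA from L1Md_F copies was scarce in every library. The mean over the 268 copies was 0.0311 and 0.0440 RPKM in the controls and 0.0361 and 0.0443 RPKM in the knockdown libraries, the lowest of the 11 subfamilies with at least 100 copies in each of the 4 libraries. The mean was 0.0842 to 0.111 RPKM for L1Md_F2 and 0.0441 to 0.0747 RPKM for L1Md_F3. Means over copies can be set by 1 locus, so medians were compared too. The median L1Md_F copy stood at 0.0154, 0.0273, 0.0219 and 0.0267 RPKM, the lowest in knockdown library 1 and the lowest but 1 in the other 3.

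**Figure D3:**
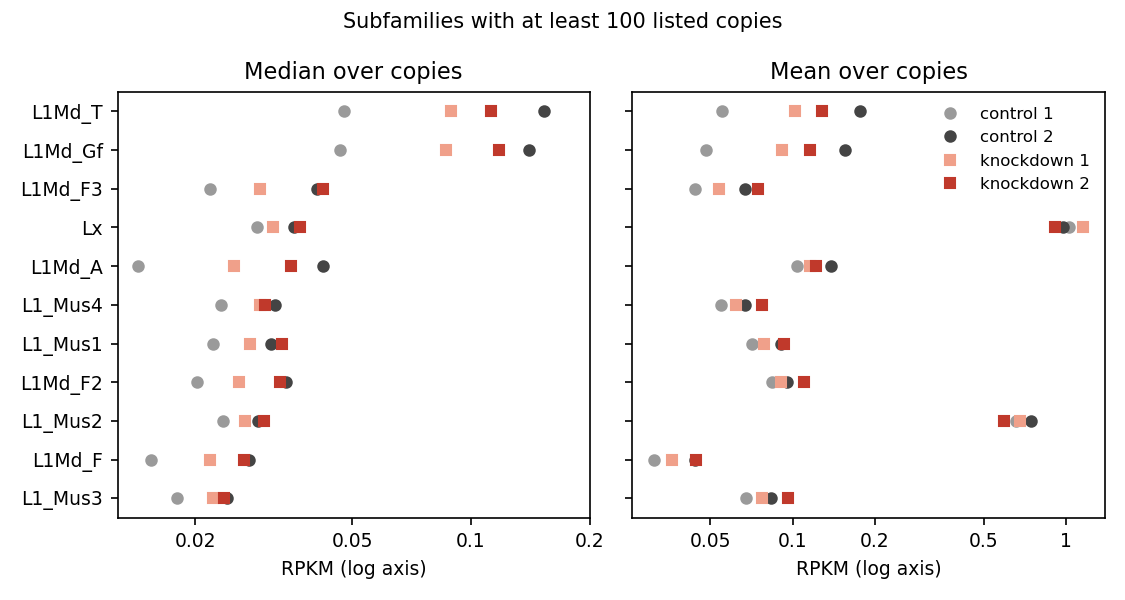
Median (left) and mean (right) RPKM over the copies of each of the 11 subfamilies, with 1 point per library on a log axis. L1Md_F has the lowest mean in every library (0.0311 to 0.0443 RPKM), and control 1 gives its lowest median (0.0154 RPKM).

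These levels are a handful of reads per copy. The median copy had 3, 9, 6 and 9 reads in the 4 libraries, and 148, 34, 68 and 34 copies had at most 3 reads. No read was found on 23 copies in control 1, the shallowest library, and on 2, 7 and 4 copies in the others. At the median length, 3 reads correspond to 0.0154 RPKM in control 1 and to 0.00865 RPKM in knockdown library 2. No copy was without reads in all 4 libraries, and 239 had reads in each. The order of the copies was moderately alike between libraries, with Spearman's rho across the 268 copies from 0.602 (the 2 controls) to 0.817 (control 2 with knockdown library 2). Copies are not independent replicates, and these values share the same libraries and lengths.

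**Figure D4:**
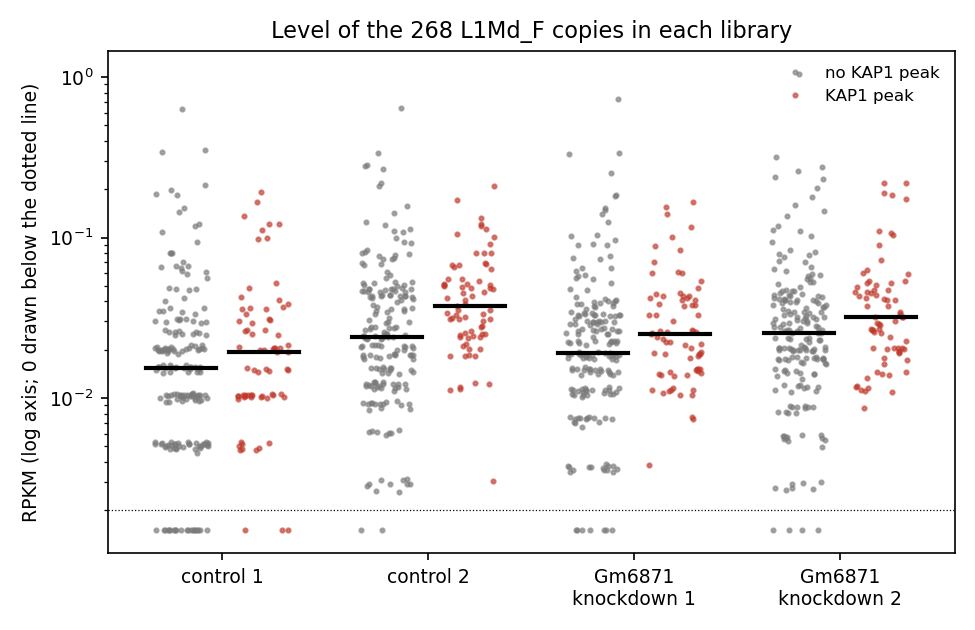
RPKM of each of the 268 L1Md_F copies in each library on a log axis, split by whether the copy had a KAP1 peak (73 red, 195 grey), with the median as a black bar and copies without reads below the dotted line. The rows of points at low values are copies with 1, 2 or 3 reads, and 1 copy lies above 0.6 RPKM in every library.

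A few copies gave much of the signal. Copy 1, at chr1:26616946-26622124, held 7.36%, 5.29%, 7.34% and 8.63% of all L1Md_F reads in the 4 libraries, with 121, 209, 194 and 359 reads. Its RPKM was 0.628 and 0.640 in the controls, against 0.729 and 1.05 in the knockdown libraries. Copy 2, at chr11:14691222-14696547, followed with 0.348, 0.337, 0.336 and 0.318 RPKM, and copy 3, at chr4:122230761-122236218, with 0.340, 0.285, 0.331 and 0.275 RPKM. Copies 2 and 3 varied little between the libraries, and copy 1 was highest in knockdown library 2. The 10 copies with the highest means together held 23.3 to 31.1% of the L1Md_F reads. Of these 10, copy 6 at chr1:11038214-11043356 and copy 10 at chr1:105202519-105207538 had a KAP1 peak, with scores of 59.36 and 82.73. None of the 10 had a Gm6871 peak.

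Copies 4 to 10 lay between 0.0663 and 0.277 RPKM in single libraries. Copy 4 at chr17:4581709-4587445 was even, at 0.211, 0.218, 0.251 and 0.232 RPKM. Copy 5 at chr7:60542723-60547878 had 0.198 and 0.209 RPKM in the controls and 0.185 and 0.258 RPKM in the knockdown libraries. Copy 7 at chr3:16594214-16599332 had 0.184, 0.158, 0.182 and 0.240 RPKM. The controls differed most at copy 9, chr8:40279480-40284749, with 0.0663 RPKM (13 reads) in control 1 and 0.277 RPKM (92 reads) in control 2, and both knockdown values, 0.140 and 0.178 RPKM, lay between them. Copy 8 at chr9:6973909-6979245 had the same form, with 0.121 and 0.268 RPKM in the controls and 0.149 and 0.204 RPKM after knockdown.

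By the median over copies, those with a KAP1 peak were no lower in RNA than the others. Their median RPKM was 0.0192, 0.0375, 0.0252 and 0.0318 in the 4 libraries, against 0.0154, 0.0239, 0.0190 and 0.0256 for the 195 copies without a peak. The median was higher with a peak in each library, by 1.24 to 1.57 times. The means did not separate the classes, with ratios of 0.978, 1.16, 0.984 and 1.06. A mean of at least 0.1 RPKM was reached by 7 of 73 copies with a KAP1 peak (9.59%) and by 13 of 195 without (6.67%). Median lengths were 5249 and 5254 bp. The classes differed in chromosome, since 1 of the 28 copies on X had a KAP1 peak. Median RPKM was 0.0106, 0.0193, 0.0129 and 0.0171 for copies on X, against 0.0155, 0.0281, 0.0224 and 0.0269 for autosomal copies. The part of the chromosome in the higher medians with a peak was not tested. The copies within a library are not replicates, so these are descriptions with no test.

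The 6 copies bound by Gm6871 were low in every library, as most copies were. None reached a mean of 0.1 RPKM, against 20 of the 262 others (7.63%). Their median was 0.0196 to 0.0295 RPKM over the libraries, against 0.0154 to 0.0270 RPKM for the others. It was the lower of the medians only in knockdown library 1, at 0.0196 against 0.0219 RPKM. Their mean was lower in each library, where the others included copy 1. Copy 81 had 0.0205 and 0.0423 RPKM in the controls and 0.0296 and 0.0461 RPKM in the knockdown libraries, from 4 to 16 reads. Copy 98 had 0.0104, 0.0460, 0.0301 and 0.0322 RPKM, from 2 to 15 reads. On both, the groups overlapped. Copy 105 had 0.0334, 0.0310, 0.0241 and 0.0269 RPKM, from 7, 11, 7 and 10 reads. Both knockdown values were below both controls in RPKM, but the unscaled reads of the groups overlapped. Copy 124 had 0.0259, 0.0276, 0.0150 and 0.0321 RPKM, copy 186 had 0.0196, 0.0145, 0.0142 and 0.0166 RPKM, and copy 216 had 0.0103, 0.0183, 0.0112 and 0.0116 RPKM. At 2 to 16 reads per library, a change of these copies was not detectable at this depth, and none of the 6 entered the test of single copies.

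The knockdown comparison asked whether less Gm6871 raised RNA from the copies. No L1Md_F copy passed the test. These are bulk libraries, in which fewer expressing cells and less RNA per cell cannot be told apart. The 20 copies with a mean of at least 0.1 RPKM were among 3167 L1 loci compared with limma on log2(RPKM + 0.1), with Benjamini-Hochberg adjustment over all of them. Of the 20, 0 passed at an adjusted p of 0.05 and 0 had an unadjusted p below 0.05. Limma's voom on whole reads also called 0 of them. Over all 3167 loci, 3 passed (0.0947%) and 5 had an unadjusted p below 0.05. The SE of each copy was set by all tested loci with similar RPKM, and 2497 of the 3167 were L1Md_T. The medians over all L1Md_T copies were far apart in the controls, at 0.0477 and 0.153 RPKM. Copy 2 had an SE of 0.54, although its values ran only from 0.318 to 0.348 RPKM. The limma test could therefore miss changes in L1Md_F copies, and the lack of calls does not show that they were unchanged. The log2 difference (knockdown minus control) of the 20 copies had a median of 0.06, from -0.34 to 0.58, with 12 above 0 (60%), against a median of 0.07 and 69.0% above 0 over all loci tested. The smallest limma adjusted p of the 20 was 1.00.

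**Figure D5:**
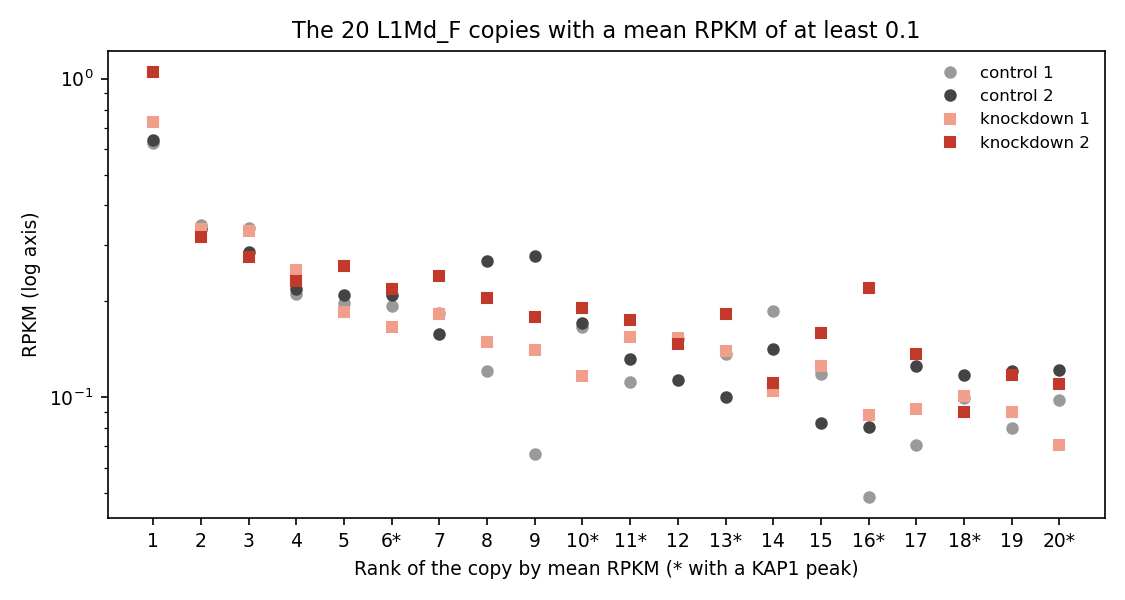
RPKM of the 20 L1Md_F copies with a mean of at least 0.1 RPKM in each library on a log axis, in order of rank, with controls as circles, knockdown libraries as squares and a star at the rank of the 7 copies with a KAP1 peak. The groups overlap at most copies, and knockdown library 2 gives the highest value at 10 of the 20.

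The highest values after knockdown came mostly from 1 library. Copy 16 at chr3:59413088-59418608, which has a KAP1 peak, had 0.0487 and 0.0805 RPKM in the controls and 0.0881 and 0.219 RPKM in the knockdown libraries. Both knockdown values lay above both controls, but the first exceeded control 2 by little. Its log2 difference was 0.58 (SE 0.37), with an adjusted p of 1.00 by limma. The difference was 0.20 without knockdown library 2, 0.96 without knockdown library 1, 0.95 with a pseudocount of 0.02 and 1.12 by voom on whole reads. Copy 1 came next with 0.41 (SE 0.44), or 0.17 without knockdown library 2 and 0.65 without knockdown library 1, again with the groups apart. Copy 15 at chr3:71547793-71553709 had 0.118, 0.0831, 0.125 and 0.159 RPKM and a log2 difference of 0.27. Copy 13 at chr2:39624162-39629871 had 0.137, 0.100, 0.140 and 0.183 RPKM (0.26), and copy 11 at chr17:33364389-33369684 had 0.112, 0.132, 0.154 and 0.174 RPKM (0.25). Copies 11 and 13 carry a KAP1 peak, and at copies 11, 13 and 15 the groups did not overlap either. In all, both knockdown values were above both controls at 6 of the 20 copies (the 5 named here and copy 4) and below both at 2 (copies 2 and 14), that is at 30.0% and 10.0%. Over the 3167 loci tested these shares were 5.05% and 1.01%, and over the tested L1Md_F2 copies 21.7% and 4.07%, and the difference was not tested.

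Knockdown library 2 was the highest of the 4 at 10 of the 20 copies, and control 1 the lowest at 8. Rn28s1, the entry for ribosomal RNA, had 263 and 66.2 RPKM in controls 1 and 2, and 209 and 1128 RPKM in knockdown libraries 1 and 2. It was highest in the same library, and its part in the result was not tested. Without control 2, copy 16 (log2 difference 0.72, adjusted p = 0.0115) and copy 9 (0.64, adjusted p = 0.0186) passed the limma test. Control 1 was then alone in its group, the spread came from the 2 knockdown libraries, and control 1 was assumed to vary like them. In that fit 1565 of the 3167 loci were called higher and 2 lower.

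The lowest values relative to the controls were at copy 14 on chromosome X, chrX:116706584-116711626, with 0.187 and 0.142 RPKM in the controls and 0.104 and 0.111 RPKM in the knockdown libraries. Both knockdown values were below both controls, and the log2 difference was -0.34 (SE 0.60). Copy 20 at chr19:34023501-34028724, with a KAP1 peak, had 0.0978, 0.121, 0.0707 and 0.110 RPKM and a log2 difference of -0.14. Copy 18, which has the fifth highest KAP1 score, had 0.0997, 0.118, 0.101 and 0.0898 RPKM (-0.09). Copy 10 had 0.166, 0.171, 0.116 and 0.190 RPKM (-0.10), and copy 2 stood at -0.05. The groups overlapped at copies 10, 18 and 20. The direction at copies 10 and 20 rested on knockdown library 1, and without it the differences were 0.11 and 0.0057.

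The same count can be made over all 268 copies, including those with too few reads for the test. Both knockdown libraries lay above both controls at 45 copies (16.8%) and below both at 26 (9.70%). Over all L1 copies these shares were 10.4% and 4.61%. They were 16.4% and 7.70% in L1Md_F2, 15.8% and 6.93% in L1Md_F3, and 2.07% and 1.06% in L1Md_T. L1Md_F thus lay near its sister lineages, in both directions. The low shares in L1Md_T go with controls far apart there, at medians of 0.0477 and 0.153 RPKM. The difference between the shares was not tested.

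As a whole, the subfamily did not pass the test either. With the mean RPKM of each of 23 subfamilies compared by limma, the log2 difference of L1Md_F was 0.09 (SE 0.19), with an adjusted p of 0.881 and with 0 of 23 subfamilies called. The knockdown values of the mean, 0.0361 and 0.0443 RPKM, overlapped the control values, 0.0311 and 0.0440 RPKM. The median difference over the 23 subfamilies was also 0.09, and after centring each library on its median subfamily, L1Md_F stood at -0.032. Its sign also turned without control 1 (-0.11) and without knockdown library 2 (-0.032), and the value was 0.28 without control 2 and 0.20 without knockdown library 1.

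Ratios within a library gave the comparison with the sister lineages. The log2 ratio of the L1Md_F mean to the L1Md_F2 mean was -1.44 and -1.12 in the controls, against -1.33 and -1.32 in the knockdown libraries. Both knockdown ratios lay between the controls, and the difference of -0.05 gave p = 1 in a two-sided exact permutation test. Its sign rested on single libraries, with -0.21 without control 1 and 0.11 without control 2. With L1Md_F3 in place of L1Md_F2 the ratios were -0.51, -0.60, -0.57 and -0.75, and the difference was -0.11 (exact permutation p = 0.667). With 2 libraries against 2, the smallest p this test can give is 0.333.

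No difference in response was detected between copies with and without a KAP1 peak. The log2 ratio of the mean over the 73 copies with a KAP1 peak to the mean over the 195 without was -0.03 and 0.21 in the controls, against -0.02 and 0.09 in the knockdown libraries. Both knockdown ratios lay inside the range of the controls. The difference was -0.06, less than the SD of 0.133 between libraries of a group, with p = 1 in the two-sided exact permutation test. It was -0.18 without control 1, 0.065 without control 2, 0.0022 without knockdown library 1 and -0.11 without knockdown library 2. With medians over copies, an alternative chosen after seeing the data, the ratios were 0.32, 0.65, 0.41 and 0.32 and the difference was -0.12 (exact permutation p = 0.667).

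The genes of the silencing machinery gave no call after Gm6871 knockdown. Of 32 listed genes, all were found and 27 had a mean of at least 0.5 RPKM. Of these 27, 0 passed limma's test over 11658 genes, in which 0 genes (0%) were called and 223 had an unadjusted p below 0.05. The log2 differences were above 0 for 9 of the 27 and below 0 for 18, with a median of -0.12, against -0.00 over all genes tested. At an unadjusted p below 0.05 there were 2 of them, Dnmt3b and Rnaseh2c.

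Trim28, which encodes KAP1, had 627 and 960 RPKM in the controls and 711 and 548 RPKM in the knockdown libraries, with overlapping groups and a log2 difference of -0.31 (SE 0.27). The heterochromatin protein genes, whose products read repressive histone methylation, were close between groups. Cbx1 had 209, 194, 200 and 164 RPKM, Cbx3 had 43.5, 38.8, 44.1 and 36.3 RPKM, and Cbx5 had 0.901, 0.855, 0.829 and 0.791 RPKM. Setdb1, the methyltransferase that KAP1 recruits, was listed at 0.214, 0.256, 0.176 and 0.179 RPKM, values too low for the test. They are those of a single entry and are not read as the level of the gene.

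Among the DNA methylation genes, Dnmt3b, a de novo methyltransferase, had 2.12 and 2.87 RPKM in the controls and 1.47 and 0.765 RPKM in the knockdown libraries. Both knockdown values were below both controls, with a log2 difference of -0.91 (SE 0.33) and a limma adjusted p of 0.997. Dnmt3a, the other de novo methyltransferase, had 2.92, 2.58, 2.57 and 1.54 RPKM (-0.37). Rnaseh2c, a subunit of an enzyme that removes RNA from hybrids with DNA, had 46.0 and 40.4 RPKM in the controls and 22.6 and 24.0 RPKM in the knockdown libraries. Its log2 difference was -0.87 (SE 0.17), with an unadjusted limma p of 0.00246 and an adjusted p of 0.997, so this separation did not pass over all genes. Dnmt1, the maintenance methyltransferase, was listed at 0.113 to 0.149 RPKM, and Uhrf1, its partner, at 0 in all 4 libraries. ES cells are known to express both genes, so the listed values of single entries are not read as the level of the gene.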

How the data were processed

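The authors deposited RPKM per mouse L1 copy of at least 5 kb and per RefSeq entry. RNA was cytoplasmic and poly(A)-selected, per the labels' protocols. The submitters' processing notes name Bowtie 0.12.5 and the build mm9. Not given in the sources used here were the counting annotation, the use of strand and the placing of multi-mapping reads. The deposited peak lists give a score per peak, used only to rank or filter. Another 8 columns of the authors' means and fold changes were not used.

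With the read totals worked out from the RPKM values, RPKM times copy length gave whole reads within 0.01 for 100% of L1 loci. Differences were tested with limma 3.58.1 (R 4.3.3) on log2(RPKM + pseudocount), which understates changes of low features. The pseudocount and minimum mean were 0.1 for copies and 0.5 for genes, with a variance trend. The pseudocount was 0.01 for means of subfamilies with at least 10 copies. For single copies limma's prior weight was so large that each was tested against a spread shared by copies of like level. The design had allowed for raw counts, but the tables hold RPKM. The labels do not say that replicates were separate cultures, so the spread behind every p-value is that between these libraries and may be technical. Gene symbols came from a RefSeq table of GRCm38.p6 (27888 of 36083 entries matched, and 1 entry kept per gene), and none of its coordinates were used.

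The subfamily, gene lists and tests were chosen with earlier results of these data known. Copies were named by rule: the 10 highest means, the 5 smallest p in each direction, every copy with a Gm6871 peak, the 5 highest KAP1 scores and those with 2 KAP1 peaks. The fit was run on simulated counts with large planned changes and no added gap between libraries of a group. The real libraries differ from that setting, so the run does not show the power for the small differences here. Alternatives covered pseudocounts, filters, trend, scaling, a replicate block, each library left out, voom on whole reads, and peak overlap and score.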

Additional observations from a re-analysis of the deposited data

How the results depend on the processing

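No L1Md_F copy passed the test under any alternative except leaving out control 2, so that leave-one-out counts ran from 0 to 2. The subfamily difference was -0.032 with median centring and ran from -0.11 to 0.28 when a library was left out, with no alternative past the threshold. Of 111 alternative values for the 10 named copies of the test, 108 kept direction and side of the threshold and 2 changed sign. These were copy 20, from -0.29 to 0.0057 with a library left out, and copy 10, from -0.31 to 0.11. At a minimum score of 100 the share with a KAP1 peak was 19.4% and that with a Gm6871 peak 0.746%. Counting only peaks with their midpoint inside gave 23.9% and 2.24%. None of 27 silencing genes passed under any alternative run. The cause of these changes was not tested.

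With the replicate number as a replicate block, the subfamily difference stayed at 0.09 (limma adjusted p 0.739), 0 copies passed, and no call changed. The within-number differences of the ratios averaged -0.05 against L1Md_F2 and -0.06 by KAP1 class. The deviations of same-numbered libraries correlated at -0.07 over 3167 L1 loci, 0.28 over the 20 tested L1Md_F copies and 0.29 over 11658 genes, and the labels name nothing that they share. Depth limits the copies: in control 1, 55.2% of them had at most 3 reads.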

Other observations

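Of the 268 L1Md_F copies, 7 (2.61%) had a listed start or end that falls exactly on a boundary between stretches of 500 kb, against 49 of 14949 L1 copies (0.328%) and 5 of 3677 L1Md_F2 copies. They were copies 24, 68, 89, 98, 122, 199 and 209, named here after their positions were seen. Of the 7, 3 had a KAP1 peak, among them the highest and the third highest score on the subfamily (copies 68 and 89), and copy 98 also had a Gm6871 peak. A listed end of this kind may not be the end of the element, and the distances given for these copies are from the listed end. On copies 68, 89 and 98 the KAP1 peak lay at the other end.

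Another listed L1 copy lay within 10 kb of 71 L1Md_F copies (26.5%), against 20.9% over all L1 copies. The neighbour was most often L1Md_A (20 copies), L1Md_T (15) or L1Md_F2 (12). Copy 98 had an L1Md_F neighbour so close that both overlapped the same KAP1 peak, from 13994246 to 13996085 on chromosome 13.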
